A study of Mus musculus with 9 samples.

Results

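This comparison sets mouse spinal cord of the group labelled SNI+LDN193189 (3 libraries) against spinal cord of the group labelled SNI (3 libraries), across every gene of the deposited count table. The 6 libraries are all those of the 2 groups, out of 9 in the series, and the other 3 were not used. All 6 are labelled as male mouse spinal cord and both groups carry the SNI injury, so LDN193189 is the only difference between them that the labels give. The labels do not spell out SNI, and the strain, age, cord segment, dose, route, vehicle and time were not in the labels used here. They number the samples as replicates without saying that they came from separate animals, so p-values measure the spread between these samples, which may be technical. Table columns are headed by a letter and a number, and those with L were read as SNI+LDN193189 and those with N as SNI.

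LDN193189 is a small-molecule inhibitor of the bone morphogenetic protein (BMP) type I receptor kinases, chiefly ALK2 (gene Acvr1) and ALK3 (gene Bmpr1a). BMP ligands bring together type I and type II receptors, the type I kinase phosphorylates SMAD1, SMAD5 and SMAD9, and these enter the nucleus with SMAD4 and switch on targets such as the Id genes and the inhibitory Smad6 and Smad7. In the spinal cord the pathway is known for its part in astrocyte and oligodendrocyte lineage decisions and in the glial response to injury, and in vessels for endothelial quiescence.

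Of 40879 gene symbols in the table, 15321 had no count in any of the 6 libraries, 7838 were below the filter on low counts and 17720 were tested with edgeR's quasi-likelihood test. At a Benjamini-Hochberg adjusted p of 0.05, 3 genes passed, which is 0.0169% of those tested, with 1 higher (0.00564%) and 2 lower (0.0113%). Elk1, an ETS-domain transcription factor that acts with serum response factor downstream of MAP kinases, fell. Mmp14, which encodes the membrane-bound collagenase MT1-MMP, also fell. Apod, which encodes the secreted lipid-binding protein apolipoprotein D, rose. Without adjustment, 1068 genes (6.03%) had a p under 0.05, 490 of them (2.77%) higher and 578 (3.26%) lower with LDN193189, where 886 would be expected if no gene differed. DESeq2 on the same counts passed 44 genes (0.248%), 28 higher (0.158%) and 16 lower (0.0903%), among them the same 3. Below, a gene passed if it did so in edgeR's test with all 6 libraries, unless another tool is named. In 1007 genes (5.68%) all 3 LDN193189 libraries were above all 3 SNI libraries, and in 1000 genes (5.64%) all were below, and these shares are the background for each list that follows.

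Library totals ran from 33432776 to 37190467 counts. The first principal component held 30.4% of the variance, and the groups overlapped on it: SNI replicates 1 and 2 lay at 15.4 and 8.05, SNI replicate 3 at -12.4, and the LDN193189 libraries between -9.11 and -0.75. The second held 23.5% and the groups did not overlap on it, with LDN193189 replicates 1 to 3 at 4.58, 1.08 and 14.7 and SNI replicates 1 to 3 at -5.95, -2.70 and -11.7. SNI replicate 3 stood apart by its interferon genes, and LDN193189 replicate 3 by low caudal Hox genes and low axotomy genes. Where leaving out a library moves a list median by over 1.5 times or turns its sign, a median without such a library is given, though not for every such library. Genes that define the tissue were present throughout: Chat, the acetylcholine synthesis enzyme of motor neurons, lay between 25.1 and 31.3 CPM (counts scaled to library size), and Mal, a protein of compact myelin, between 632 and 765 CPM. In whole tissue, fewer cells of a type and less RNA per cell cannot be told apart.

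The promoters of the 3 genes that passed, of Per1 and Cry1 from the clock and of Sgk1 from the glucocorticoid response are shown because the results turn on these genes or on the groups they belong to. Each line gives the 250 bases before a RefSeq start of the gene (build GRCm38.p6), 5′ to 3′ on the gene's own strand. For Mmp14, Elk1 and Apod this is the first start, with or without a match. For Per1, Cry1 and Sgk1 it is the first start whose window held the marked element, so its presence there was fixed in advance. The Per1 window lies inside the annotated gene (chr11:69095217-69109960). Capitals mark a GC box (GGGCGG or its reverse complement) in Mmp14 and Elk1, an E-box (CACGTG, the letters that CLOCK and BMAL1 bind) in Per1 and Cry1, and a palindromic glucocorticoid response element (searched as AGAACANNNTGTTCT) in Sgk1.
Mmp14 (chr14:54431348-54431597, plus strand): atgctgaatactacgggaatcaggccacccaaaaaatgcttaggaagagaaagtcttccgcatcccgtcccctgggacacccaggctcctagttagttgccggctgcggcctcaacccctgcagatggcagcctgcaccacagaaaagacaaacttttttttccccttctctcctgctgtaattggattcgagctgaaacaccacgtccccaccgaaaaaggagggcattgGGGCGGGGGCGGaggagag
Elk1 (chrX:20950609-20950858, minus strand): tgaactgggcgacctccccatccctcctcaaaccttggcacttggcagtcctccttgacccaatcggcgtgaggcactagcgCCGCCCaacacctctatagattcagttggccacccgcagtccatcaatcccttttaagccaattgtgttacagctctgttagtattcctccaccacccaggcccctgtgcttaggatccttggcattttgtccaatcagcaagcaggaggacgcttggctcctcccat
Apod (chr16:31314809-31315058, minus strand): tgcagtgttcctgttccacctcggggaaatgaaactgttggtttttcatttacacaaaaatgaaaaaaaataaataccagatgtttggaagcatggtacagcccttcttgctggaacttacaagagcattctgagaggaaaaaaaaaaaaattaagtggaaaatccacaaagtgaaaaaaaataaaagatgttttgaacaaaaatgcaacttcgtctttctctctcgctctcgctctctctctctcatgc
Per1 (chr11:69098699-69098948, plus strand): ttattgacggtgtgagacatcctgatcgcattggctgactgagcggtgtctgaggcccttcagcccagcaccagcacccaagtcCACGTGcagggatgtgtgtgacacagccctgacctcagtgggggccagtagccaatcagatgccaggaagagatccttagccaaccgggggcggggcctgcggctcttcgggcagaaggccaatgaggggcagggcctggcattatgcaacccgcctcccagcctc
Cry1 (chr10:85185055-85185304, minus strand): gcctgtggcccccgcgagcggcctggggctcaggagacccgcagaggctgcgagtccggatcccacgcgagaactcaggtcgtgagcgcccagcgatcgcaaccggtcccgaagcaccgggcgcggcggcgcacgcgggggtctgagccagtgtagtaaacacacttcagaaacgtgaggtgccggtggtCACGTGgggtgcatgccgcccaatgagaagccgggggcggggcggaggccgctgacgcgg
Sgk1 (chr10:21993640-21993889, plus strand): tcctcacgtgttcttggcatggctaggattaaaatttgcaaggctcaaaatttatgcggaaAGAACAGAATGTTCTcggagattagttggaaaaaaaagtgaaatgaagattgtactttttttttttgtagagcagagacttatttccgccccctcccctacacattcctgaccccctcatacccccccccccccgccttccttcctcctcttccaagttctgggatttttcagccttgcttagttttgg

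Both strands of each window were searched, and overlapping matches were counted. Of 32851 windows of the same length, 32.7% held a GC box, 6.02% an E-box and 0.00913% (3 windows) the glucocorticoid response element. Mmp14 held 2 GC boxes, starting 19 and 13 bases before the start, and Elk1 held 1, starting 168 bases before it. The Apod window held no GC box and was 36.4% G or C. E-boxes started 166 bases before the start in Per1 and 60 bases before it in Cry1, and 3 of 7 clock repressor genes with a window held one, as did 0 of 4 clock activators, 2 of 7 clock output genes and 5 of 21 glucocorticoid response genes. One of these 5 is Sgk1, whose E-box is left in lower case in the line above. The Per1, Cry1 and Sgk1 lines also hold GC boxes, likewise left in lower case, so GC boxes are not particular to Mmp14 and Elk1. Sgk1, with its element starting 189 bases before the start, was the only one of 21 glucocorticoid response genes with a window to hold these letters. In the list counts a gene was counted if any of its windows held the letters, whereas the shares over 32851 windows are per window. The counts and the shares are therefore not on the same footing. A match describes the letters and is not a binding site.

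Elk1 (chrX:20933395-20950608, minus strand) stood at 14.8, 15.2 and 14.1 CPM with LDN193189 and 23.4, 24.9 and 23.8 CPM with SNI alone. Every LDN193189 library was below every SNI library, and the libraries of a group lay close together. For Elk1 the log2 fold change was -0.71 (SE 0.0811, adjusted p = 0.00358). Its exons share 76 of 5381 bases with exons of Uxt (chrX:20941722-20962017, same strand), so reads there cannot be assigned to one gene. Uxt itself stood at 3.15, 4.29 and 4.14 CPM with LDN193189 and 3.57, 4.51 and 3.78 CPM with SNI alone, with overlapping groups. Per length, the authors' FPKM (fragments scaled by transcript length and library size) for Elk1 was 4.14 ± 0.135 (SD, n = 3) with LDN193189 and 6.80 ± 0.263 (SD, n = 3) without. Without SNI replicate 2 the call was lost, at an edgeR adjusted p of 0.0939 and a log2 fold change of -0.68.

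Mmp14 (chr14:54431612-54445364, plus strand) stood at 20.97, 16.7 and 18.5 CPM with LDN193189 and 33.7, 33.5 and 28.5 CPM with SNI alone. The groups did not overlap, and SNI replicate 3 was the lowest of its group. For Mmp14 the log2 fold change was -0.77 (SE 0.0935, adjusted p = 0.0049). In FPKM, Mmp14 was 4.93 ± 0.591 (SD, n = 3) with LDN193189 and 8.42 ± 0.681 (SD, n = 3) without. The adjusted p was 0.0788 without SNI replicate 1 and 0.11 without SNI replicate 2, with a log2 fold change of -0.73 in both cases.

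Apod (chr16:31296192-31314808, minus strand) was the most abundant of the 3. It stood at 856, 816 and 936 CPM with LDN193189 and 622, 673 and 684 CPM with SNI alone. The groups did not overlap, and LDN193189 replicate 3 was highest. For Apod the log2 fold change was 0.40 (SE 0.0517, adjusted p = 0.0279). Leaving out 1 library at a time gave log2 fold changes from 0.34 to 0.44. The adjusted p was 0.105 without LDN193189 replicate 1, 0.129 without SNI replicate 1 and 0.282 without SNI replicate 2. Over 16 alternative settings (tools, scaling, filters and single libraries left out), Apod passed in 7, Elk1 in 13 and Mmp14 in 12. Apod did not pass with limma-voom (adjusted p = 0.0698), without robust fitting, with library totals or with at least 1 CPM in 3 libraries. On FPKM none of the 3 genes passed. Apod is also made by fibroblasts and Schwann cells, and the markers of both stood higher with LDN193189 (values below). Their part in this result was not tested.

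**Figure D1:**
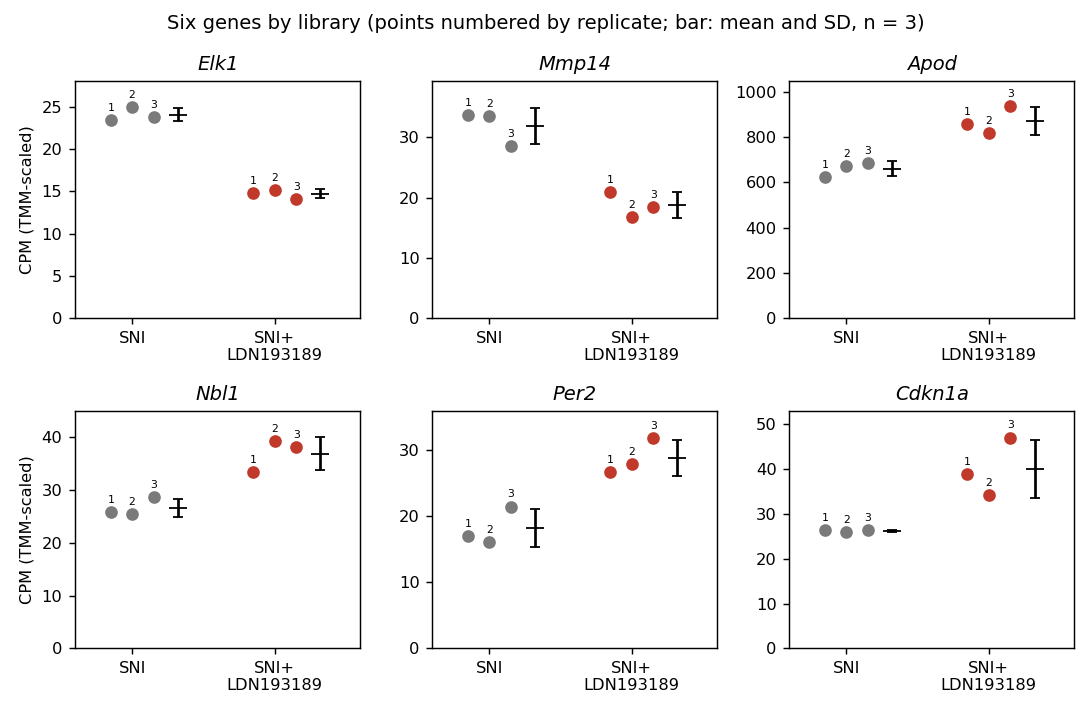
CPM (TMM-scaled) by library for 6 genes, grey for SNI and red for SNI+LDN193189, points numbered by replicate, with the mean and SD (n = 3). Elk1, Mmp14 and Apod passed the adjusted test, while Nbl1, Per2 and Cdkn1a had edgeR adjusted p of 0.0913, 0.113 and 0.117, and in none of the 6 do the groups overlap.

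**Figure D2:**
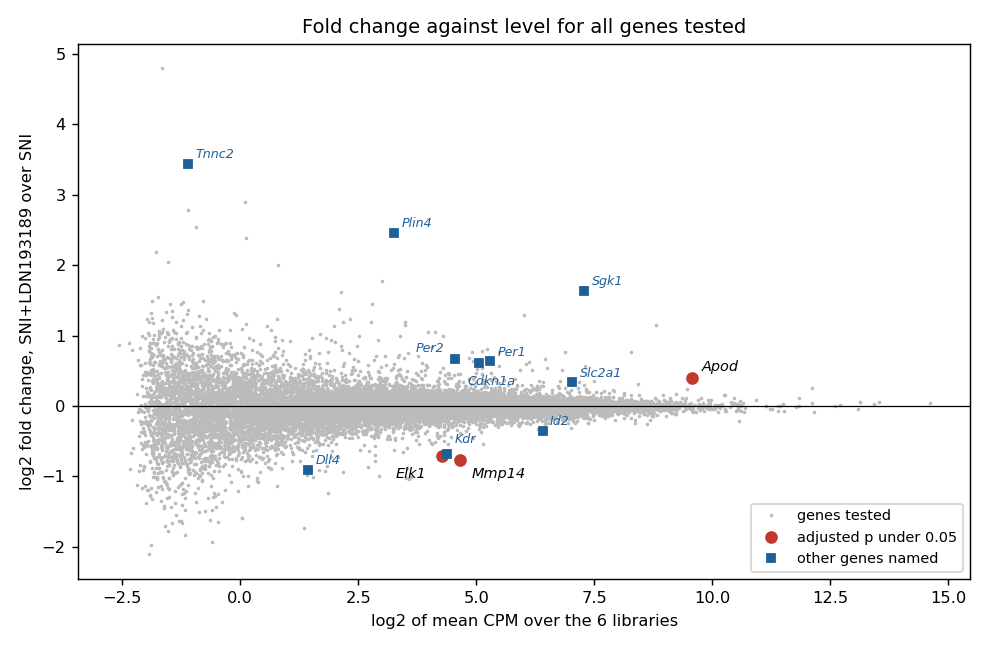
Log2 fold change, SNI+LDN193189 over SNI, against the log2 of mean CPM for the 17720 genes tested, with the 3 genes that passed in red and other named genes in blue. Tnnc2, Plin4 and Sgk1 have larger fold changes than Elk1, Mmp14 or Apod and did not pass in edgeR, while DESeq2 passed Tnnc2 (adjusted p = 0.0103).

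None of 17 tested receptor and co-receptor genes of the BMP, activin and TGF-beta family, which hold the targets of LDN193189, passed. Their median log2 fold change was 0.07, against -0.00 over all genes tested, and the groups did not overlap in 3 of them. Without LDN193189 replicate 1 it was 0.03. Acvr1, one main target of the compound, stood at 32.4, 28.7 and 27.4 CPM with LDN193189 and 35.8, 24.5 and 28.3 CPM with SNI alone. Bmpr1a, the other, stood at 96.96, 96.9 and 99.8 CPM with LDN193189 and 95.4, 98.5 and 96.8 CPM with SNI alone. The groups overlapped in both.

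Acvrl1, the type I receptor of endothelial cells, stood at 18.6, 19.4 and 14.5 CPM with LDN193189 and 13.6, 12.8 and 16.3 CPM with SNI alone. For Acvrl1 the log2 fold change was 0.30 (SE 0.122, adjusted p = 0.77). Bmpr1b stood at 37.9, 35.4 and 36.7 CPM with LDN193189 and 46.2, 41.99 and 34.3 CPM with SNI alone, and Bmpr2, the main type II receptor, stood at 296, 309.9 and 301 CPM with LDN193189 and 302, 287 and 276 CPM with SNI alone. Both overlapped between groups. Among 9 receptors whose levels were compared per length, Bmpr2 stood highest at 25.03 FPKM over the 6 libraries, followed by Acvr1b (the activin type I receptor) at 17.2, Bmpr1a at 16.1, Acvr1 at 7.78, Acvr2a at 6.93 and Tgfbr1 at 6.74. Acvrl1 at 4.20 and Bmpr1b at 3.95 came next, then Acvr2b at 1.96. The ranges over libraries overlapped among Acvr1, Acvr2a and Tgfbr1, and between Acvrl1 and Bmpr1b.

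Genes known to report BMP-SMAD activity did not shift together. Of 16 tested target genes 8 stood higher and 8 lower, the median log2 fold change was 0.02 (-0.02 without SNI replicate 3, 0.06 without LDN193189 replicate 3) and none passed in edgeR. DESeq2 passed Id2 (adjusted p = 0.0334). The groups did not overlap in 2 that stood higher and 3 that stood lower. Id2, an inhibitor of basic helix-loop-helix factors, stood at 75.4, 67.7 and 79.9 CPM with LDN193189 and 106, 98.8 and 80.5 CPM with SNI alone. SNI replicate 3 was nearly level with LDN193189 replicate 3, and the other SNI libraries were higher. For Id2 the log2 fold change was -0.35 (SE 0.111, adjusted p = 0.693). Tmem100, an endothelial gene downstream of ALK1, stood at 16.9, 16.02 and 18.3 CPM with LDN193189 and 25.8, 23.1 and 19.1 CPM with SNI alone. For Tmem100 the log2 fold change was -0.41 (SE 0.105, adjusted p = 0.409). Without SNI replicate 3, edgeR passed both, at adjusted p of 0.00626 for Id2 and 0.0254 for Tmem100.

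The other Id genes leaned the opposite way from Id2. Id1 stood at 10.9, 10.3 and 10.00 CPM with LDN193189 and 9.45, 11.01 and 9.00 CPM with SNI alone. Id3 stood at 23.7, 23.9 and 22.7 CPM with LDN193189 and 20.4, 21.8 and 22.01 CPM with SNI alone, without overlap. Id4 stood at 108, 121 and 132 CPM with LDN193189 and 104, 111 and 113 CPM with SNI alone. Their log2 fold changes were 0.08 for Id1, 0.13 for Id3 and 0.14 for Id4, and their adjusted p were 0.953, 0.849 and 0.826. Of the inhibitory SMADs, Smad7 stood at 23.2, 22.8 and 29.05 CPM with LDN193189 and 27.3, 26.4 and 23.9 CPM with SNI alone, and Smad6 stood at 2.69, 2.38 and 1.31 CPM with LDN193189 and 2.06, 2.95 and 1.93 CPM with SNI alone. Both overlapped. Smad9, a signal carrier, stood at 55.6, 63.2 and 64.6 CPM with LDN193189 and 62.8, 61.4 and 62.02 CPM with SNI alone, also with overlap.

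Among 16 secreted antagonists and modulators, 9 stood higher and the median log2 fold change was 0.08, or 0.03 without SNI replicate 1 and 0.17 without SNI replicate 3. Nbl1, which encodes DAN, a secreted protein that binds BMP ligands, stood at 33.3, 39.3 and 38.1 CPM with LDN193189 and 25.8, 25.6 and 28.6 CPM with SNI alone. All LDN193189 libraries were above all SNI libraries. For Nbl1 the log2 fold change was 0.47 (SE 0.0784, adjusted p = 0.0913). DESeq2 passed Nbl1 (adjusted p = 0.00038), as did limma-voom (0.04). Bmper, a BMP-binding protein of endothelium, stood at 16.3, 16.5 and 17.7 CPM with LDN193189 and 18.7, 18.6 and 18.2 CPM with SNI alone, lower in every LDN193189 library. For Bmper the log2 fold change was -0.14 (SE 0.0835, adjusted p = 0.854). Of 18 tested ligands of the family 6 stood higher, with a median of -0.06 (-0.01 without SNI replicate 2, -0.10 without SNI replicate 3). Lefty1, an inhibitor of nodal, stood at 1.15, 1.73 and 1.34 CPM with LDN193189 and 0.606, 0.752 and 0.607 CPM with SNI alone, at a level near 1 CPM. For Lefty1 the log2 fold change was 1.09 (SE 0.33, adjusted p = 0.604). Of 11 SMAD and co-factor genes 5 stood higher and 6 lower, with a median of -0.02 (0.01 without LDN193189 replicate 2). The groups did not overlap in 2 that stood higher and 1 that stood lower. Among these 11, Skil, a repressor of SMAD transcription, stood at 57.3, 49.5 and 56.6 CPM with LDN193189 and 64.97, 62.9 and 59.1 CPM with SNI alone, without overlap. For Skil the log2 fold change was -0.19 (SE 0.0646, adjusted p = 0.641).

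Of 12 tested metalloproteinase genes, Mmp14 alone passed. The 12 had a median log2 fold change of -0.11, and 9 stood lower. Without LDN193189 replicate 1, 11 of 12 stood lower, with a median of -0.20, and without LDN193189 replicate 2 the median was -0.07. Mmp2, the gelatinase that MT1-MMP activates at the cell surface, stood at 7.16, 6.52 and 5.68 CPM with LDN193189 and 5.27, 5.37 and 6.46 CPM with SNI alone, with overlap. Of the other membrane-type members, Mmp16 stood at 16.1, 16.5 and 15.00 CPM with LDN193189 and 16.1, 18.1 and 18.2 CPM with SNI alone, and Mmp25 stood at 0.687, 0.893 and 0.686 CPM with LDN193189 and 0.969, 1.07 and 1.049 CPM with SNI alone, the latter without overlap. Per length, Timp2, an inhibitor that takes part in Mmp2 activation, stood at 130.6 FPKM, Mmp15 at 11.4, Mmp14 at 6.67 and Mmp2 at 1.91 over the 6 libraries. Timp1, Timp3 and Timp4 are listed at 0 in all 6 libraries, so they could not be compared. Whether the 0 comes from the counting was not tested.

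Genes of metalloproteinase inhibitors, activating proteases and partners of MT1-MMP, taken as 1 list, showed smaller differences. Of 14 tested 6 stood higher, with a median of -0.03, which turned to 0.02 without SNI replicate 3. Cd44, a hyaluronan receptor and MT1-MMP substrate, stood at 22.7, 21.2 and 21.7 CPM with LDN193189 and 23.3, 25.3 and 24.9 CPM with SNI alone, without overlap. For Cd44 the log2 fold change was -0.16 (SE 0.0755, adjusted p = 0.822). Cd151, a tetraspanin, stood at 39.2, 36.7 and 34.1 CPM with LDN193189 and 30.1, 33.2 and 33.2 CPM with SNI alone, and these groups also did not overlap. For Cd151 the log2 fold change was 0.19 (SE 0.0724, adjusted p = 0.719).

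Of 35 extracellular matrix genes 22 stood higher, with a median log2 fold change of 0.11. Without LDN193189 replicate 1 this median was 0.02, without SNI replicate 2 it was 0.05 and without SNI replicate 3 it was 0.20. Tnc, a matrix protein of reactive astrocytes, stood at 5.13, 4.08 and 5.11 CPM with LDN193189 and 7.63, 6.42 and 5.41 CPM with SNI alone. For Tnc the log2 fold change was -0.44 (SE 0.166, adjusted p = 0.718). Ncan, a proteoglycan of perineuronal nets, stood at 66.4, 60.4 and 54.4 CPM with LDN193189 and 76.1, 70.5 and 68.7 CPM with SNI alone. For Ncan the log2 fold change was -0.25 (SE 0.0693, adjusted p = 0.536). Col6a2, a collagen of microfibrils, stood at 7.45, 8.55 and 7.43 CPM with LDN193189 and 5.63, 5.85 and 6.30 CPM with SNI alone. For Col6a2 the log2 fold change was 0.40 (SE 0.134, adjusted p = 0.641). In each of these 3 the groups did not overlap, and Tnc and Ncan stood lower while Col6a2 stood higher.

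Genes that respond to glucocorticoids had the largest share of members without overlap among the lists described. Of 24 genes tested, 22 stood higher with LDN193189, the median log2 fold change was 0.48 and the groups did not overlap in 15, all of them higher, against 5.68% of all genes. None passed the adjusted test in edgeR. DESeq2 passed Cdkn1a (adjusted p = 1.27e-05), Per1 (4.59e-05), Tsc22d3 (0.000653), Sult1a1 (0.017) and Fkbp5 (0.0435). With 1 library left out, edgeR passed Cdkn1a without LDN193189 replicate 2 (adjusted p = 0.00858) and Sult1a1 without SNI replicate 3 (0.00504). This list was chosen with earlier results of these data known, so its direction is not independent evidence. LDN193189 replicate 3 held the highest level in 22 of the 24 genes, whereas it was the highest library in 16.1% of all genes tested. Without that library the median was 0.26 and 23 members stood higher.

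Cdkn1a, a cell cycle inhibitor, stood at 38.96, 34.2 and 47.02 CPM with LDN193189 and 26.3, 25.99 and 26.3 CPM with SNI alone. For Cdkn1a the log2 fold change was 0.61 (SE 0.0982, adjusted p = 0.117). The SNI libraries lay within 1 CPM of each other. Tsc22d3, the anti-inflammatory leucine zipper GILZ, stood at 186, 194 and 225 CPM with LDN193189 and 167, 147 and 159 CPM with SNI alone. For Tsc22d3 the log2 fold change was 0.36 (SE 0.0754, adjusted p = 0.393). Fkbp5, a co-chaperone that damps the glucocorticoid receptor, stood at 32.7, 38.6 and 50.1 CPM with LDN193189 and 28.96, 29.6 and 29.7 CPM with SNI alone. For Fkbp5 the log2 fold change was 0.46 (SE 0.147, adjusted p = 0.718). Sult1a1, a sulfotransferase, stood at 15.7, 17.4 and 19.1 CPM with LDN193189 and 9.39, 10.5 and 14.2 CPM with SNI alone. For Sult1a1 the log2 fold change was 0.61 (SE 0.141, adjusted p = 0.354). In all 4 genes every LDN193189 library was above every SNI library.

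Sgk1, a kinase that regulates ion transport and whose promoter is shown above, had a wide spread. It stood at 128, 192 and 391 CPM with LDN193189 and 99.1, 45.5 and 84.00 CPM with SNI alone. For Sgk1 the log2 fold change was 1.64 (SE 0.58, adjusted p = 0.822). Plin4, a lipid droplet protein, stood at 6.76, 8.72 and 33.2 CPM with LDN193189 and 2.73, 1.66 and 4.45 CPM with SNI alone. For Plin4 the log2 fold change was 2.46 (SE 0.883, adjusted p = 0.822). In both, LDN193189 replicate 3 was 2-fold or more above the other libraries of its group. The metallothionein Mt2 stood at 116, 123 and 159 CPM with LDN193189 and 93.9, 83.1 and 104 CPM with SNI alone, and Klf15, a zinc finger factor, stood at 43.9, 46.3 and 69.1 CPM with LDN193189 and 37.3, 33 and 36.9 CPM with SNI alone. Their adjusted p were 0.762 and 0.795. Lcn2, Pdk4 and Dusp1 overlapped between groups.

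The circadian clock genes tended to divide by their place in the loop. The repressors and the nuclear receptors of the second loop had 9 of 9 tested members higher, at a median of 0.19 on the log2 scale, and 3 did not overlap. Among these 9, Nr1d1 was level (log2 fold change 0.0023). Without SNI replicate 1, and likewise without LDN193189 replicate 2, 7 of the 9 stood higher. Of 7 activators and co-activators 2 stood higher, with a median of -0.06 (-0.01 without LDN193189 replicate 1, -0.10 without LDN193189 replicate 2) and 2 without overlap, both lower. In clock output genes 6 of 8 stood higher, with a median of 0.12 (0.22 without SNI replicate 3). None of these passed in edgeR. DESeq2 passed Per2 (adjusted p = 2.85e-05), Per1 (4.59e-05) and Cry1 (0.0288), and limma-voom passed Per2 (0.0129). Without SNI replicate 3 the repressor median was 0.31, and edgeR passed Per1 and Per2 (adjusted p = 0.00113 for each), Cry1 (0.00504), Bmal1 (0.0214), Npas2 (0.0444) and Tef (0.0441). Per1 is in both the clock and the glucocorticoid list.

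Per2, a core repressor, stood at 26.7, 27.96 and 31.8 CPM with LDN193189 and 17.1, 16.1 and 21.5 CPM with SNI alone. For Per2 the log2 fold change was 0.66 (SE 0.107, adjusted p = 0.113). Cry1, its partner, stood at 23.5, 25.2 and 24.3 CPM with LDN193189 and 16.2, 15.8 and 20.99 CPM with SNI alone. For Cry1 the log2 fold change was 0.46 (SE 0.102, adjusted p = 0.306). Per1 stood at 42.7, 49.1 and 51.9 CPM with LDN193189 and 29.2, 25.8 and 37.4 CPM with SNI alone. For Per1 the log2 fold change was 0.64 (SE 0.144, adjusted p = 0.538). In all 3 the groups did not overlap, and SNI replicate 3 was the SNI library closest to the LDN193189 libraries.

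On the activator side, Bmal1, the partner of CLOCK, stood at 15.9, 14.5 and 15.3 CPM with LDN193189 and 23.99, 20.9 and 16.5 CPM with SNI alone. For Bmal1 the log2 fold change was -0.42 (SE 0.118, adjusted p = 0.536). Npas2, which can stand in for CLOCK, stood at 8.74, 7.83 and 7.80 CPM with LDN193189 and 12.6, 12.3 and 8.97 CPM with SNI alone. For Npas2 the log2 fold change was -0.48 (SE 0.139, adjusted p = 0.542). Clock itself stood at 111, 107 and 115 CPM with LDN193189 and 124, 128 and 112 CPM with SNI alone, with overlap. The output factor Dbp stood at 40.4, 47.4 and 36.2 CPM with LDN193189 and 20.6, 23.3 and 41.4 CPM with SNI alone, where SNI replicate 3 lay within the LDN193189 range. Nr1d1, encoding REV-ERB alpha, stood at 55.2, 53.3 and 35.5 CPM with LDN193189 and 42.04, 46.9 and 54.7 CPM with SNI alone, with overlap. The labels give no time of day, so a difference between groups in sampling time cannot be told apart from one in treatment.

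Without SNI replicate 3, the edgeR test passed 64 genes, and Per1, Per2, Cry1, Bmal1, Npas2, Dbp and Nr1d2 were among them. The median of the 9 repressors was then 0.31. With the other libraries left out in turn it lay between 0.13 and 0.24.

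**Figure D3:**
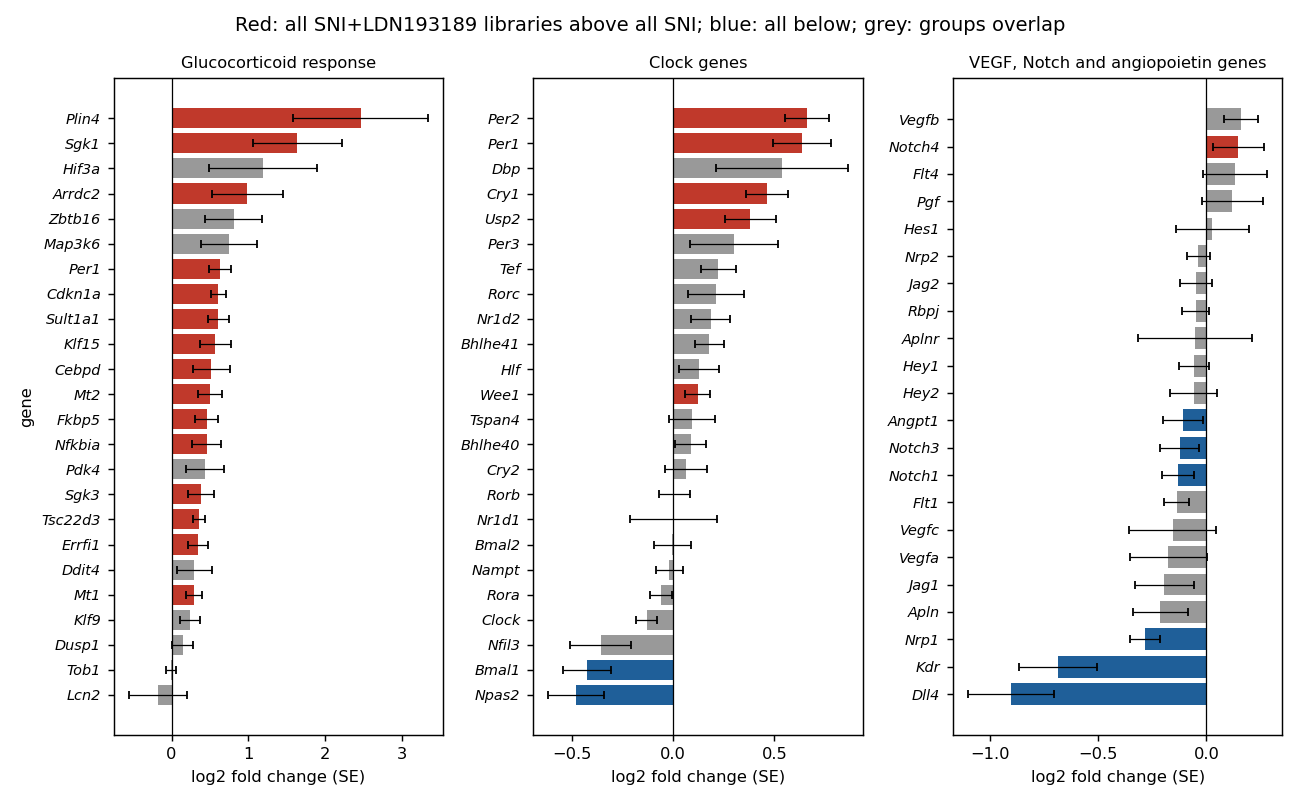
Log2 fold change with its SE for glucocorticoid response genes, clock genes and VEGF, Notch and angiopoietin genes, in red where all SNI+LDN193189 libraries were above all SNI libraries, in blue where all were below and in grey where the groups overlap. Red bars fill 15 of 24 glucocorticoid genes, and the lowest bars of the vessel panel are Dll4 and Kdr.

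The VEGF, Notch and angiopoietin genes of vessels stood mostly lower. Of 22 tested, 17 were lower, the median log2 fold change was -0.08, and the groups did not overlap in 6 that were lower and 1 that was higher. None passed in edgeR, while DESeq2 passed Kdr (adjusted p = 0.00159). Kdr, the main VEGF receptor, stood at 19.7, 15.2 and 13.1 CPM with LDN193189 and 28.6, 27.7 and 20.8 CPM with SNI alone. For Kdr the log2 fold change was -0.69 (SE 0.179, adjusted p = 0.617). Dll4, a Notch ligand of endothelial tip cells, stood at 1.72, 1.97 and 1.97 CPM with LDN193189 and 3.85, 3.28 and 3.48 CPM with SNI alone. For Dll4 the log2 fold change was -0.90 (SE 0.2, adjusted p = 0.306). Nrp1, a VEGF co-receptor, stood at 33.4, 31.7 and 35.2 CPM with LDN193189 and 41.9, 42.7 and 37.5 CPM with SNI alone. For Nrp1 the log2 fold change was -0.28 (SE 0.0704, adjusted p = 0.367). edgeR passed Nrp1 without SNI replicate 3 (adjusted p = 0.0487). Flt1, a decoy VEGF receptor, stood at 91.9, 98.1 and 85.8 CPM with LDN193189 and 108, 100.4 and 94.9 CPM with SNI alone, with overlap.

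Of 20 general endothelial markers tested, 8 stood higher, with a median of -0.04, which was 0.01 without LDN193189 replicate 3 and -0.11 without LDN193189 replicate 2. Cdh5, the adherens junction cadherin, stood at 16.2, 18.5 and 12.9 CPM with LDN193189 and 19.2, 18.7 and 19.5 CPM with SNI alone. Cldn5, the tight junction claudin, stood at 22.5, 22.9 and 19.9 CPM with LDN193189 and 33.04, 30.8 and 21.7 CPM with SNI alone. Ocln, another tight junction protein, stood at 13.5, 14.4 and 13.6 CPM with LDN193189 and 10.96, 10.9 and 11.8 CPM with SNI alone, and Mfsd2a, a lipid transporter of the blood-brain barrier, stood at 36.5, 35.97 and 46.8 CPM with LDN193189 and 34.3, 26.8 and 31.1 CPM with SNI alone. The adjusted p were 0.779 for Cdh5, 0.791 for Cldn5, 0.641 for Ocln and 0.693 for Mfsd2a. In edgeR, Cldn5 passed without SNI replicate 3 (adjusted p = 0.00729). Pecam1 overlapped, with a log2 fold change of -0.08. Rgs5, a G-protein regulator of pericytes, stood at 150.2, 147 and 158 CPM with LDN193189 and 185, 171 and 181 CPM with SNI alone. For Rgs5 the log2 fold change was -0.24 (SE 0.0448, adjusted p = 0.135). DESeq2 passed Rgs5 (adjusted p = 0.00489), as did edgeR without SNI replicate 3 (0.0487). Of 13 pericyte genes 4 stood higher, and 8 did so without SNI replicate 3.

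Of 16 astrocyte identity genes tested, 8 stood higher, the median log2 fold change was -0.01 (-0.04 without LDN193189 replicate 2), and 4 were lower without overlap. Gja1, the connexin of astrocyte gap junctions, stood at 384, 382 and 388 CPM with LDN193189 and 467, 443 and 412 CPM with SNI alone. For Gja1 the log2 fold change was -0.19 (SE 0.044, adjusted p = 0.319). DESeq2 passed Gja1 (adjusted p = 0.0496), as did edgeR without SNI replicate 3 (0.0122). Slc1a2, the main glutamate transporter, stood at 2560.4, 2701 and 2623 CPM with LDN193189 and 2885, 2722 and 2722 CPM with SNI alone. For Slc1a2 the log2 fold change was -0.08 (SE 0.0365, adjusted p = 0.822).

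Of 20 reactive astrocyte genes 12 stood higher, 4 of them without overlap, with a median of 0.02, which was -0.02 without LDN193189 replicate 1 and 0.07 without SNI replicate 3. Vim, the intermediate filament vimentin, stood at 92.6, 81.1 and 81.9 CPM with LDN193189 and 50.6, 58.7 and 70.9 CPM with SNI alone. For Vim the log2 fold change was 0.50 (SE 0.13, adjusted p = 0.641). DESeq2 passed Vim (adjusted p = 0.000348), as did edgeR without SNI replicate 3 (0.00356). Cd109 stood at 5.61, 4.64 and 5.86 CPM with LDN193189 and 3.09, 3.92 and 3.87 CPM with SNI alone. For Cd109 the log2 fold change was 0.57 (SE 0.172, adjusted p = 0.606). Both groups of values were separated, and Vim is also expressed by fibroblasts, Schwann cells and endothelium.

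Among 20 oligodendrocyte genes 11 stood higher and the median was 0.02. SNI replicate 3 was the lowest library in 13 of them, and without it 7 stood higher, with a median of -0.02. Opalin, a myelin membrane protein, stood at 70.01, 78.9 and 60.9 CPM with LDN193189 and 81.7, 86.9 and 93.4 CPM with SNI alone. For Opalin the log2 fold change was -0.32 (SE 0.0907, adjusted p = 0.617). DESeq2 passed Opalin (adjusted p = 0.0496). Mal stood at 765, 707 and 712 CPM with LDN193189 and 696, 689.9 and 632 CPM with SNI alone. For Mal the log2 fold change was 0.11 (SE 0.0444, adjusted p = 0.73). Of 12 oligodendrocyte precursor genes 3 stood higher, with a median of -0.11, or -0.04 without LDN193189 replicate 1.

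Genes of excitatory synapses stood slightly lower. Of 24 glutamate receptor and scaffold genes 19 were lower, 5 of them without overlap, and the median log2 fold change was -0.08. Shank1, a postsynaptic scaffold, stood at 129.7, 136 and 127 CPM with LDN193189 and 152, 153 and 148 CPM with SNI alone. For Shank1 the log2 fold change was -0.21 (SE 0.0436, adjusted p = 0.267). DESeq2 passed Shank1 (adjusted p = 0.0343), as did edgeR without SNI replicate 3 (0.0487). Grm7, a presynaptic metabotropic receptor, stood at 75.2, 81.2 and 86.7 CPM with LDN193189 and 90.6, 96.3 and 94.5 CPM with SNI alone. For Grm7 the log2 fold change was -0.21 (SE 0.0554, adjusted p = 0.436). Gria1, an AMPA receptor subunit, stood at 180.0, 191 and 187 CPM with LDN193189 and 196, 207 and 209.6 CPM with SNI alone. For Gria1 the log2 fold change was -0.13 (SE 0.0424, adjusted p = 0.606). Without SNI replicate 2 the median was -0.03.

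Of 21 sodium and calcium channel genes 18 stood lower, 4 without overlap, with a median of -0.06. Cacna1a, the P/Q-type calcium channel, stood at 50.8, 57.3 and 58.1 CPM with LDN193189 and 66.5, 69.9 and 63.1 CPM with SNI alone. For Cacna1a the log2 fold change was -0.26 (SE 0.063, adjusted p = 0.332). Cacna1b, the N-type channel of nociceptive terminals, stood at 68.5, 71.6 and 72.4 CPM with LDN193189 and 76.9, 83.02 and 77.98 CPM with SNI alone. For Cacna1b the log2 fold change was -0.16 (SE 0.0513, adjusted p = 0.606). LDN193189 replicate 1 was the lowest library in 16 of these 21 genes, and without it the median was -0.03. Without SNI replicate 3 it was -0.09. Gabra2, a GABA receptor subunit, stood at 105, 97.2 and 88.9 CPM with LDN193189 and 122, 112 and 106 CPM with SNI alone. For Gabra2 the log2 fold change was -0.22 (SE 0.0656, adjusted p = 0.606). Of 15 general neuron markers 4 stood higher, with a median of -0.02. Without LDN193189 replicate 3, 7 did so with a median of -0.01, and without LDN193189 replicate 2 the median was -0.04. P2ry1, an ATP receptor, stood at 38.96, 42.6 and 41.99 CPM with LDN193189 and 35.6, 30.3 and 30.98 CPM with SNI alone. For P2ry1 the log2 fold change was 0.35 (SE 0.0734, adjusted p = 0.263). DESeq2 passed P2ry1 (adjusted p = 0.0195).

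Genes induced in axotomized neurons overlapped between groups throughout. Of 17 tested, 14 stood lower with a median of -0.09. Sprr1a, a growth-associated protein of injured neurons, stood at 6.36, 17.4 and 0.686 CPM with LDN193189 and 6.60, 15.04 and 22.9 CPM with SNI alone. Atf3, the transcription factor marking axotomy, stood at 5.61, 9.77 and 1.14 CPM with LDN193189 and 5.82, 8.59 and 12.2 CPM with SNI alone. Both were lowest in LDN193189 replicate 3, the library also low in caudal Hox genes: Hoxd10 stood at 40.2, 39.04 and 6.83 CPM with LDN193189 and 31.6, 38.7 and 55.3 CPM with SNI alone. Hoxc8 was instead highest in that library, at 46.5, 51.2 and 66.7 CPM with LDN193189 and 54.5, 51.1 and 39.02 CPM with SNI alone. Without LDN193189 replicate 3, 14 axotomy genes stood lower, with a median of -0.09. The median was -0.06 without SNI replicate 2 and -0.15 without LDN193189 replicate 2. Gal, a neuropeptide of injured neurons, stood at 5.61, 5.598 and 4.00 CPM with LDN193189 and 4.54, 6.01 and 7.90 CPM with SNI alone, with overlap.

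Of 16 homeostatic microglial genes 12 and of 21 reactive microglial genes 14 stood higher, with medians of 0.08 and 0.05, and the groups did not overlap in 0 and 1 of them. Both medians were 0.01 without SNI replicate 1. Of 18 complement genes 13 stood higher with a median of 0.19, and 1 did not overlap. The median was 0.08 without SNI replicate 1, 0.11 without LDN193189 replicate 2 and 0.30 without SNI replicate 3.

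Of 15 inflammasome and pyroptosis genes 10 stood higher, with a median of 0.04 and overlap in all. The median was -0.02 without SNI replicate 1 and 0.10 without SNI replicate 3. Gsdmd, the pore-forming protein of pyroptosis, stood at 3.07, 2.74 and 3.06 CPM with LDN193189 and 3.03, 2.63 and 4.09 CPM with SNI alone, and Gsdme stood at 37.5, 43.1 and 42.6 CPM with LDN193189 and 35.9, 37.9 and 43.2 CPM with SNI alone. Casp1, Casp4 and Il1b are listed at 0 in all 6 libraries, so they could not be compared. Nlrp3 stood at 1.49, 1.49 and 0.971 CPM with LDN193189 and 1.57, 1.07 and 1.049 CPM with SNI alone, with overlap. Of 26 glycolysis genes 17 stood higher with a median of 0.013 (0.0054 without LDN193189 replicate 2, 0.026 without LDN193189 replicate 3). Ldha, the lactate dehydrogenase A subunit, stood at 83.8, 66.1 and 70.04 CPM with LDN193189 and 77.6, 80.9 and 69.4 CPM with SNI alone, and Ldhb stood at 536, 559.7 and 529 CPM with LDN193189 and 536, 502 and 532 CPM with SNI alone. Pfkfb4, a regulator of phosphofructokinase, stood at 19.4, 17.6 and 16.3 CPM with LDN193189 and 23.3, 19.5 and 23.03 CPM with SNI alone. For Pfkfb4 the log2 fold change was -0.30 (SE 0.0954, adjusted p = 0.606).

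Slc2a1, the glucose transporter of endothelium and glia, stood at 136, 136 and 169 CPM with LDN193189 and 119, 109 and 121 CPM with SNI alone. For Slc2a1 the log2 fold change was 0.34 (SE 0.0909, adjusted p = 0.623). DESeq2 passed Slc2a1 (adjusted p = 0.0103). The lactate transporter Slc16a1 stood at 107, 98.6 and 93.7 CPM with LDN193189 and 111, 105 and 104 CPM with SNI alone, with overlap. The list labelled lactylation holds histone acyltransferases, deacylases and lactate-AMP ligases in general, among them the acetyltransferase Ep300 and the alanyl-tRNA synthetase Aars2. Of its 19 tested genes 11 stood higher and the median was 0.00. Without SNI replicate 2, 6 stood higher, with a median of -0.02. Aars2 stood at 19.5, 17.7 and 20.1 CPM with LDN193189 and 20.3, 21.5 and 20.5 CPM with SNI alone, without overlap, and Ep300 stood at 70.2, 68.3 and 68.3 CPM with LDN193189 and 73.3, 68.1 and 64.7 CPM with SNI alone, with overlap. Pdk2, a kinase that holds back pyruvate dehydrogenase, stood at 81.2, 81.8 and 80.4 CPM with LDN193189 and 75.5, 70.6 and 71.2 CPM with SNI alone. For Pdk2 the log2 fold change was 0.16 (SE 0.049, adjusted p = 0.591). Of 18 citric acid cycle genes 15, and of 30 nuclear oxidative phosphorylation genes 24, stood higher, with medians of 0.03 in both lists, and without SNI replicate 2 these were 0.02 and 0.01.

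Markers of tissue around the cord differed between the libraries. Of 12 Schwann cell and peripheral myelin genes all 12 stood higher, 5 without overlap, with a median log2 fold change of 0.89, or 0.55 without LDN193189 replicate 1. LDN193189 replicate 1 was the highest library in 10 and SNI replicate 1 the lowest in 11 of these genes. Egr2, the Schwann cell myelination factor, stood at 4.50, 3.93 and 4.46 CPM with LDN193189 and 1.33, 2.12 and 2.87 CPM with SNI alone. For Egr2 the log2 fold change was 1.02 (SE 0.238, adjusted p = 0.33). DESeq2 passed Egr2 (adjusted p = 0.0458), as did edgeR without SNI replicate 3 (0.0274). Cdh19, a cadherin of Schwann cells, stood at 68.03, 63.4 and 83.3 CPM with LDN193189 and 44.04, 50.96 and 55.4 CPM with SNI alone. For Cdh19 the log2 fold change was 0.51 (SE 0.125, adjusted p = 0.606). DESeq2 passed Cdh19 (adjusted p = 0.000365). Of 17 fibroblast and meningeal genes 14 stood higher, all with overlap, with a median of 0.32, which was 0.19 without LDN193189 replicate 2 and 0.50 without SNI replicate 3.

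Skeletal muscle genes had the largest median fold change of the lists described, at levels of a few CPM or less. Of 10 tested, 9 stood higher, 4 without overlap, and the median log2 fold change was 2.19. Without LDN193189 replicate 3 the median was 1.01 with 7 higher. Acta1, skeletal actin, stood at 0.687, 3.99 and 3.66 CPM with LDN193189 and 0.909, 0.51 and 0.663 CPM with SNI alone. Tnnc2, a troponin of fast muscle, stood at 0.286, 1.25 and 1.03 CPM with LDN193189 and 0.121, 0.0537 and 0.0552 CPM with SNI alone. For Tnnc2 the log2 fold change was 3.44 (SE 0.673, adjusted p = 0.181). DESeq2 passed Tnnc2 (adjusted p = 0.0103), as did edgeR without LDN193189 replicate 1 (0.0347). Of 10 leukocyte genes 9 stood lower, with a median of -0.51 (-0.92 without SNI replicate 2, -0.86 without LDN193189 replicate 1) and overlap in all, and S100a9 stood at 8.71, 6.07 and 8.63 CPM with LDN193189 and 25.3, 7.52 and 15.5 CPM with SNI alone. The part of these tissues in the results on Apod, Vim, matrix and glucocorticoid response genes was not tested.

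**Figure D4:**
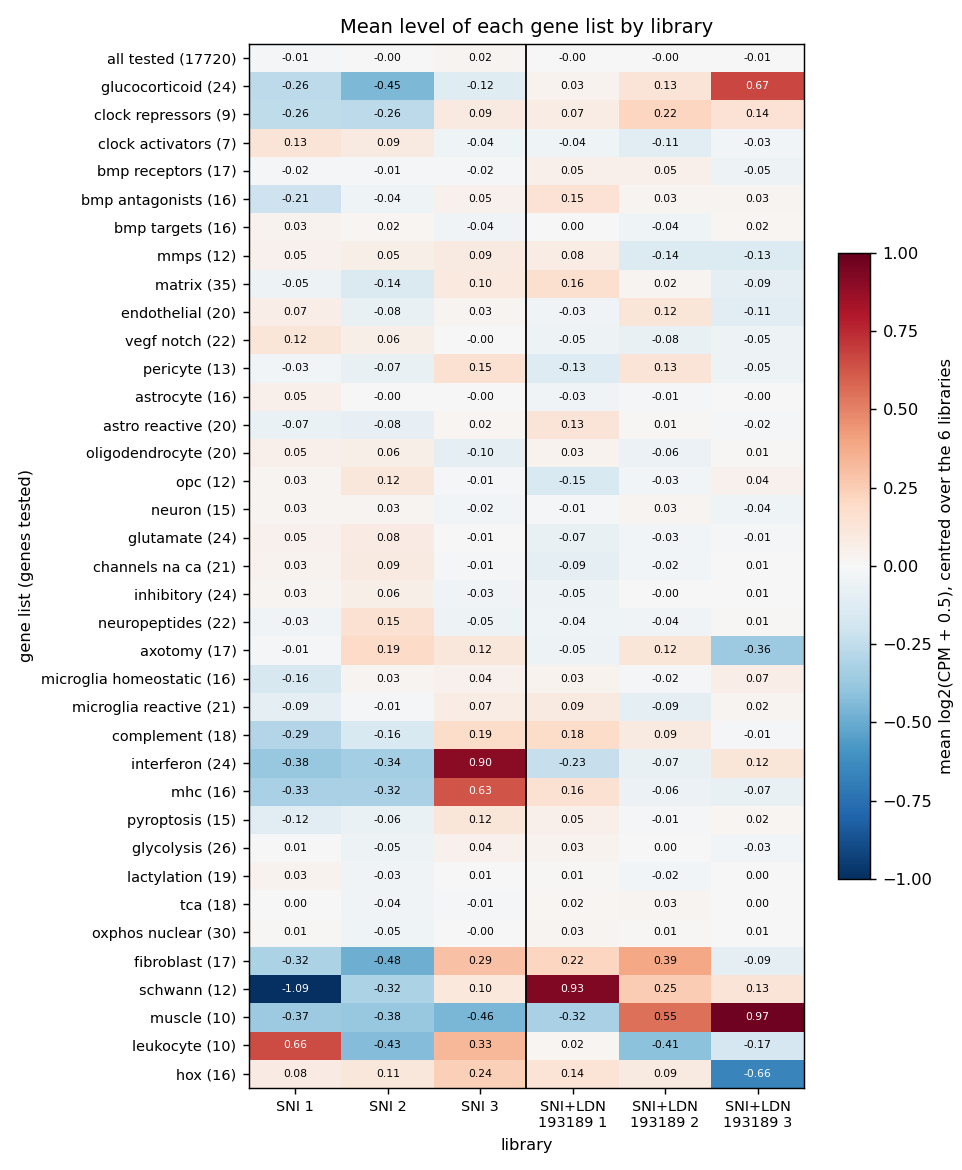
Mean log2(CPM + 0.5) of each gene list in each library, centred over the 6 libraries, with the number of genes tested in brackets. Glucocorticoid response genes are highest in SNI+LDN193189 replicate 3, interferon and MHC genes in SNI replicate 3, Schwann cell genes lowest in SNI replicate 1, and the list of Hox genes of the cord axis lowest in SNI+LDN193189 replicate 3.

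Interferon response genes rested on 1 library. Of 24 tested, 20 stood lower with LDN193189, the median log2 fold change was -0.31 and every gene overlapped. SNI replicate 3 held the highest level in 22 of the 24. Ifit3, an antiviral effector, stood at 22.7, 32.6 and 34.3 CPM with LDN193189 and 15.1, 17.6 and 82.3 CPM with SNI alone. Without SNI replicate 3, 23 members stood higher, with a median of 0.31. Without SNI replicate 1 it was -0.53. Among 16 antigen presentation genes 5 stood higher with all libraries, 15 without SNI replicate 3 and 9 without LDN193189 replicate 3. Tap1, the peptide transporter, stood at 4.64, 5.12 and 5.83 CPM with LDN193189 and 3.82, 4.89 and 15.5 CPM with SNI alone, again with SNI replicate 3 far above the rest.

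**Figure D5:**
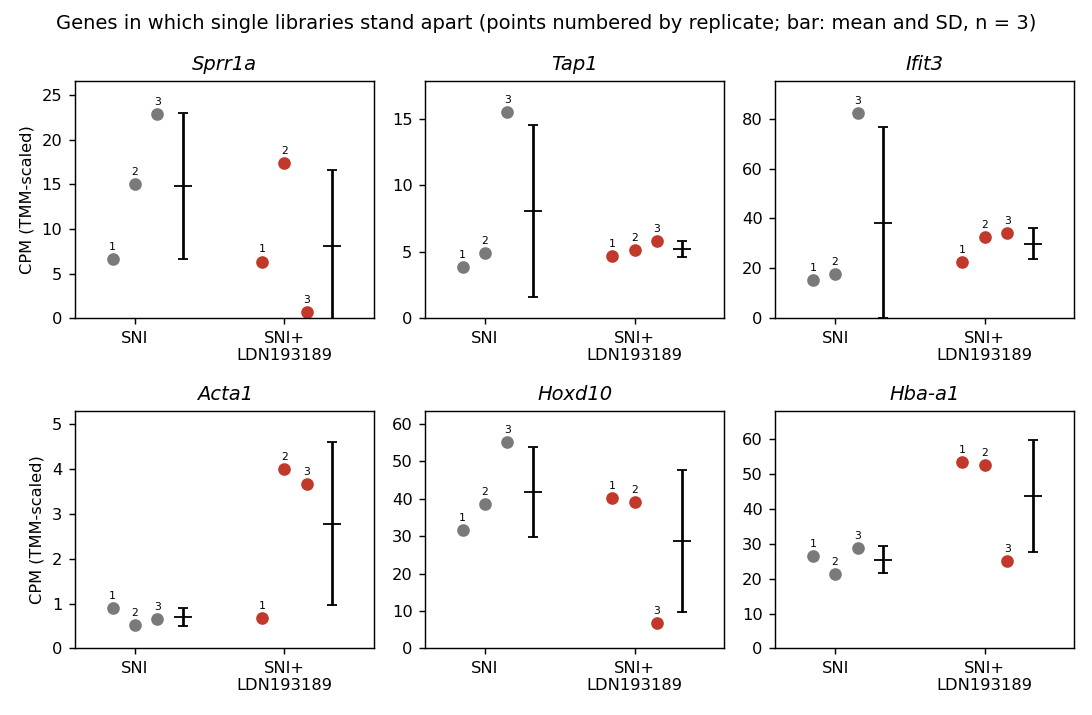
CPM (TMM-scaled) by library for 6 genes in which single libraries stand apart, grey for SNI and red for SNI+LDN193189, with the mean and SD (n = 3). Tap1 and Ifit3 are high in SNI replicate 3 alone, Hoxd10 and Sprr1a are low in SNI+LDN193189 replicate 3, Acta1 is high in SNI+LDN193189 replicates 2 and 3, and Hba-a1 in replicates 1 and 2.

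Genes outside the lists with a p among the 12 smallest in either direction were named by the same rule. Fth1, the ferritin heavy chain, stood at 4749, 4559 and 5068 CPM with LDN193189 and 4200.5, 4049 and 3758 CPM with SNI alone. For Fth1 the log2 fold change was 0.26 (SE 0.0469, adjusted p = 0.178). Neat1, the long non-coding RNA of paraspeckles, stood at 331, 372 and 375 CPM with LDN193189 and 424, 455 and 415 CPM with SNI alone. For Neat1 the log2 fold change was -0.26 (SE 0.0506, adjusted p = 0.208). Selenop, a selenium carrier, stood at 635, 630.3 and 645 CPM with LDN193189 and 590.0, 569 and 541 CPM with SNI alone. For Selenop the log2 fold change was 0.17 (SE 0.0387, adjusted p = 0.33). Por, the electron donor of cytochrome P450 enzymes, stood at 60.2, 61.5 and 69.98 CPM with LDN193189 and 52.5, 53.2 and 52.1 CPM with SNI alone. For Por the log2 fold change was 0.28 (SE 0.0622, adjusted p = 0.306). Tmod1, an actin capping protein, stood at 17.2, 18.5 and 13.8 CPM with LDN193189 and 21.96, 22.6 and 25.2 CPM with SNI alone. For Tmod1 the log2 fold change was -0.50 (SE 0.105, adjusted p = 0.284). In each of these 5 the groups did not overlap, and DESeq2 passed Fth1, Neat1, Por and Tmod1 (adjusted p = 0.000865, 0.00375, 0.0466 and 0.0152). The other 6 were Rida, Ezr, Zfhx2, Ccp110, Sytl2 and Pde8a, also without overlap, with log2 fold changes of 0.29 for Rida, 0.35 for Ezr, -0.27 for Zfhx2, -0.20 for Ccp110, -0.24 for Sytl2 and -0.23 for Pde8a.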

How the data were processed

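Raw read counts per gene symbol and FPKM values were deposited by the authors, and mm10 is named in the submitters' processing notes. Which aligner, gene model set and counting program were used is not given in the sources used here. In each library 70.7% to 71.6% of the non-zero counts were even. The 3 columns of the remaining group in each table were not used.

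Counts of the 6 libraries were filtered with filterByExpr, TMM-scaled and tested with edgeR 4.0.16 in R 4.3.3 (quasi-likelihood F test, robust, Benjamini-Hochberg threshold 0.05), SNI+LDN193189 against SNI without a replicate block. The SE of a log2 fold change was taken as its absolute value over the square root of the F statistic. Median SE was 0.103. It differed between genes (0.0517 for Apod, 0.883 for Plin4), so the size of difference that could be seen differed too. CPM are TMM-scaled. FPKM, from the authors' deposited table, gave levels per length and an alternative test with limma 3.58.1. DESeq2 1.42.0 was an alternative. The counts of list members with 1 library left out were an alternative chosen after seeing the data. The fit was tested on simulated data.

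Named were the called genes, the 12 smallest p in each direction at a mean of 1 CPM or more, as many as 4 genes per list (lowest p first), and genes listed by name; other list members were added after their values were seen. Members and lists were chosen with earlier results of these data known. Promoters are from RefSeq (GRCm38.p6), gene positions from GENCODE M21 (GRCm38).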

Additional observations from a re-analysis of the deposited data

How the results depend on the processing

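The comparison passed 3 genes (1 higher, 2 lower). DESeq2 passed 44 (28 higher, 16 lower), limma-voom with sample weights 5 (3 higher), edgeR without robust fitting 2 (0 higher), limma on log2 FPKM 0 with either pseudocount (0 higher and 0 lower for 0.1 and for 1), library totals in place of TMM 2 (0 higher), no filter on low counts 204 (114 higher, 90 lower) and at least 1 CPM in 3 libraries 2 (0 higher). Leaving out 1 library gave 0 to 64 genes (0 to 29 higher, 0 to 35 lower): 0 without SNI replicate 2, 1 without SNI replicate 1, 64 without SNI replicate 3, and 8, 6 and 4 without LDN193189 replicates 1, 2 and 3. The cause of these differences was not tested. Without SNI replicate 2 the lowest edgeR adjusted p was 0.0939.

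The labels do not say whether equal replicate numbers pair the samples. With values centred within each group, same-numbered libraries had correlations of 0.084, -0.069 and -0.088. Of the LDN193189 libraries, 1 of 3 correlated best with its own number. Centring within groups of 3 ties these correlations to each other, so they cannot decide whether the samples were paired. With the replicate block edgeR passed 11 genes (8 higher), and Slc16a3 turned to -0.00973.

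Log2 fold changes near 0 turned sign. Acvr1 was -0.000671 with DESeq2, -0.00375 with library totals and -0.00301 with at least 1 CPM. Ep300 was -0.00507 with voom. Slc16a3 was -0.0125 and -0.00155 with FPKM pseudocounts of 0.1 and 1 and -0.00152 with library totals. With 1 library left out the log2 fold change ran from -0.12 to 0.16 for Acvr1, -0.0018 to 0.027 for Bmpr1a, -0.037 to 0.053 for Ep300, -0.27 to 0.062 for Gsdmd, -0.055 to 0.15 for Hk2, -1.30 to 0.19 for Ifi44, -0.73 to 0.16 for Isg15, -0.16 to 0.017 for Ldha, -0.0061 to 0.31 for Nlrp3. It ran from -0.0031 to 0.043 for Pkm, -0.89 to 0.12 for Psmb9, -0.82 to 0.13 for Rsad2, -0.19 to 0.10 for Slc16a3, -0.33 to 0.13 for Smad6, -0.17 to 0.012 for Smad7, -0.065 to 0.043 for Smad9, -0.97 to 0.25 for Tap1. The other genes of the naming rule kept their sign under each of these settings.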

Other observations

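Of 23 immediate early genes tested, 13 stood higher, at a median of 0.12 on the log2 scale. The groups did not overlap in 3 that stood higher and 1 that stood lower. Without LDN193189 replicate 1, 9 stood higher with a median of -0.04, without SNI replicate 3, 10 did so with a median of -0.01, and without SNI replicate 1, 17 did so with a median of 0.18. None passed edgeR's adjusted test with all 6 libraries, and DESeq2 passed Egr2 (adjusted p = 0.0458). Egr2 is in both the immediate early and the Schwann cell list. Nr4a2, an orphan nuclear receptor, stood at 7.28, 5.12 and 5.26 CPM with LDN193189 and 3.82, 4.35 and 4.69 CPM with SNI alone. Npas4, a factor induced by neuronal activity, stood at 6.53, 6.91 and 5.20 CPM with LDN193189 and 8.24, 8.43 and 7.79 CPM with SNI alone. Arc, a synaptic immediate early gene, stood at 21.7, 15.5 and 19.3 CPM with LDN193189 and 26.3, 29.2 and 21.4 CPM with SNI alone, with LDN193189 replicate 1 above SNI replicate 3.

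Of 8 red cell genes 6 stood higher, with a median of 0.28 (0.14 without LDN193189 replicate 2, 0.51 without SNI replicate 1). The other 2 stood lower, and the mean log2 fold change of the 8 was -0.02. Slc4a1 went the other way from the globins, at log2 fold changes from -2.14 to -0.72 with 1 library left out. Hba-a1, an alpha globin, stood at 53.5, 52.6 and 25.1 CPM with LDN193189 and 26.4, 21.2 and 28.7 CPM with SNI alone, high in LDN193189 replicates 1 and 2 only. Without LDN193189 replicate 3, edgeR passed it (adjusted p = 0.00754), and its reads may be shared with its near-identical copy Hba-a2.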
